A study of Homo sapiens with 32 samples.

Results

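The IL-1 family cytokines described here are 6 genes, chosen by name: the ligands IL1A, IL1B and IL18, the antagonists IL1RN and IL18BP, and the receptor subunit IL1RAP. They were read as the rows with exactly these symbols in the 8 tables of normalized counts, among 60107 genes in all. RNA of THP-1 cells, a human monocytic leukemia line, was sequenced as 32 libraries in 8 groups of 4. All 4 lines go back to THP-1 cells in which ACLY had been knocked out. ACLY, ATP-citrate lyase, makes acetyl-CoA from citrate in the cytosol and nucleus. KO cells lack it, and the WT, HA and SA lines were lentivirally transduced, under puromycin selection, with wild-type ACLY, with the catalytically inactive H760A mutant and with the S455A mutant, in which a serine that is normally phosphorylated was replaced. Each line was either unstimulated or stimulated for 3 hours with LPS (lipopolysaccharide), a molecule of the bacterial outer membrane that monocytes sense through TLR4. The labels give 100 ng/ml LPS, while the methods' paragraph on cell treatment states a lower concentration. Each genotype is represented by a single line in the labels, and the 4 libraries of any group came from that line, so p-values measure only the spread between repeats, which may be technical. Whether the KO cells were transduced is not stated, so that transduction and genotype cannot be told apart in comparisons with KO.

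IL-1 family cytokines are early signals of inflammation. IL-1α (IL1A) and IL-1β (IL1B) bind the receptor IL1R1, which then recruits the accessory protein IL1RAP and signals through MYD88 and IRAK kinases to NF-κB. IL-18 uses its own receptor pair and the same intracellular route. Both IL-1β and IL-18 are made as precursors that caspase-1 cuts after an inflammasome forms, so that the mRNA level is only the first step of their production. IL1RN encodes the IL-1 receptor antagonist, which occupies IL1R1 without signalling, and IL18BP encodes a secreted protein that captures IL-18. In monocytes, IL1B mRNA is induced by LPS within hours, whereas IL18 mRNA is usually present at rest.

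IL1A, IL1B and IL1RN lie in 1 cluster on chromosome 2 of GRCh38. IL1A is at chr2:112773925-112784493 and IL1B at chr2:112829751-112836816, both on the minus strand with 45257 bases between them. IL1RN follows on the plus strand at chr2:113099315-113134016, 262498 bases beyond IL1B. The IL18 gene is at chr11:112143253-112164096 on the minus strand, IL18BP at chr11:71998613-72007315 on the plus strand, and IL1RAP at chr3:190514051-190659750 on the plus strand. The 3′ end of IL18BP lies inside NUMA1, a gene on the opposite strand with a mean normalized count of 557. The strand setting of the read counting is not stated, so reads of IL18BP and NUMA1 may not be told apart and the IL18BP values are uncertain.

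The start regions of IL1B and IL1RN are shown because these are the members called in comparisons below and lie in 1 cluster. Each window has 300 bases, 250 before and 50 after a transcript start, from RefSeq on GRCh38.p14. Of the 6 members, 5 had such a window, and IL18 had none. For IL1RN, first and later name the windows shown, and the gene as placed above begins before both. A further IL1RN window, chr2:113127239-113127538, overlaps the later one and is not shown. Capitals mark letters of 3 patterns searched on both strands: GGGNNNNNCC (NF-κB type), GAGGAA (PU.1 core) and TTGNNNAA (C/EBP type). These patterns can overlap one another.
IL1B, chr2:112836730-112837029, minus strand: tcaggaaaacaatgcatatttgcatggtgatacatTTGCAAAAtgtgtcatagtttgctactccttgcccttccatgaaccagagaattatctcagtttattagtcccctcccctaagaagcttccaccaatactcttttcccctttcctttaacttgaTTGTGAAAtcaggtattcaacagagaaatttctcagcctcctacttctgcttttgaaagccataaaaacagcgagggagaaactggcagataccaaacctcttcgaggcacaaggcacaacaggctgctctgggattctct
IL1RN, first start, chr2:113117721-113118020, plus strand: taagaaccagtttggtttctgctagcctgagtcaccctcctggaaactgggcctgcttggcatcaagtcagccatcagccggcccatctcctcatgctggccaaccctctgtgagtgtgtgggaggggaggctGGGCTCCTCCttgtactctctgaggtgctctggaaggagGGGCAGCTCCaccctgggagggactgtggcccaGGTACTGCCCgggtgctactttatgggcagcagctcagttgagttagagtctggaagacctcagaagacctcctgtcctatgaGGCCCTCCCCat
IL1RN, later start, chr2:113127348-113127647, plus strand: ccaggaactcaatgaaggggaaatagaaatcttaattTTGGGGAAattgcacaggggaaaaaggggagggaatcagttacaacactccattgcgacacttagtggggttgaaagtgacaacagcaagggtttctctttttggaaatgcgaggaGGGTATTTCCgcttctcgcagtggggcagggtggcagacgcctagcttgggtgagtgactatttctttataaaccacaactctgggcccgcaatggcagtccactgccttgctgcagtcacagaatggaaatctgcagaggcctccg
The IL1B window held 2 matches to the C/EBP-type pattern, at positions -215 and -91 from the start, and no match to the other patterns. In the first IL1RN window there were 4 matches to the NF-κB-type pattern, the nearest upstream one at -45, and the later one held 1, at -97, beside 1 C/EBP-type match at -213. Among all 35116 windows, 58.7% held the NF-κB-type pattern, 27.9% the PU.1 core and 33.4% the C/EBP-type pattern, so a match is common and describes letters only. The libraries read 3′ ends and cannot tell which start was used.

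The depth was 6504099 to 14750815 reads on genes per library. The level of a gene is its reads divided by a factor that puts all 32 libraries on 1 scale, called the normalized count. The kit reads 1 stretch near the 3′ end of each transcript, so counts do not grow with transcript length. Monocyte markers were present in all libraries, with 10 of 10 tested. Of the T cell markers, CD3E and CD3G were at 0 in all 32 libraries, and the summed T cell list did not exceed 0.837 in any library. The mRNA level of ACLY did not separate KO from WT cells (88.5 ± 17.4 against 102 ± 11.4 unstimulated, SD, n = 4, limma adjusted p = 8.84e-01), so this level does not check the knockout label. A component of the spread within groups took up 52.135% of the within-group variance over the genes tested. Its direction was set so that IL1RN rose along it, and the library highest on it in each group is called outlying. These were replicate 3 of the WT and KO groups and replicate 1 of the HA and SA groups, with and without LPS. In HA at rest, replicate 4 lay slightly farther out at the other end (-37.7, beside 35.1 for replicate 1). A member thus entered the choice of these libraries. Where the call of a member, the sign of a mean ratio or the first or last place in an order of levels changed without these 8 outlying libraries, both values are given.

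LPS raised IL1B in HA and SA cells, and IL1B was the only one of the 6 members called in any LPS comparison over all libraries. Of the 6 members, 5 had a mean normalized count of at least 10 and were tested among the 12406 genes at that level, in 1 fit by limma over all groups with a limit of 0.01 on the adjusted p. In HA cells, IL1B stood at 53.9, 31.9, 70.8 and 46.7 without LPS and at 260, 337, 274 and 292 with it (replicates 1 to 4). The groups did not overlap, and the log2 fold change was 2.54 (SE 0.38, limma adjusted p = 1.48e-04). In SA cells the values were 21.3, 37.5, 60.0 and 27.4 without LPS and 307, 167, 280 and 160 with it. Every stimulated SA library was above every unstimulated one, with a log2 fold change of 2.66 (SE 0.38, limma adjusted p = 7.08e-05). Thus 1 of 5 tested members was called in each of these lines, where 0.403% of all genes were called in HA and 0.492% in SA. Without the outlying library of each group IL1B was called in both lines as well, beside 0.653% and 0.580% of all genes. Fitted on the SA libraries alone, IL1B missed the limit (limma adjusted p = 3.35e-02).

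In KO cells IL1B read 155, 307, 118 and 114 at rest and 608, 823, 319 and 498 after LPS. These groups did not overlap either, but the log2 fold change of 1.73 (SE 0.38) missed the limit in the fit over all groups, with a limma adjusted p of 1.47e-02. In WT cells IL1B read 45.8, 62.8, 42.6 and 68.3 at rest and 209, 233, 61.0 and 122 after LPS. Stimulated WT replicate 3 lay inside the unstimulated range and the other 3 above it, and the log2 fold change was 1.35 (SE 0.38, limma adjusted p = 2.70e-01). Without the outlying library of each group the WT value was 1.62 (limma adjusted p = 1.74e-02) and the KO value was 1.83 (limma adjusted p = 2.55e-03), with 0.363% and 0.975% of all genes called. In the fit over all libraries, 0 of 5 members were called in WT and 0 in KO, where 0.250% and 0.580% of all genes were.

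By the rule given in the account of the processing, the replicate numbers paired the libraries of WT and KO cells. The same comparisons were therefore also made within pairs, and the blocked values rest on that rule. With the replicate number as a block, IL1B rose in WT by 1.35 (SE 0.23, limma adjusted p = 1.14e-03), higher in 4 of 4 pairs, by 0.51 to 2.17. In KO the blocked rise was 1.73 (SE 0.16, limma adjusted p = 2.04e-04), and its 4 pairs ran from 1.42 to 2.12. IL1RN was called as well under the block, and rose by 0.68 in WT (SE 0.09, limma adjusted p = 6.78e-05) and by 1.08 in KO (SE 0.14, limma adjusted p = 1.83e-03). Thus 2 of 5 members were called in both lines, where 1.02% of all genes were called in WT and 0.935% in KO. For HA and SA the numbers did not pair the libraries.

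**Figure D1:**
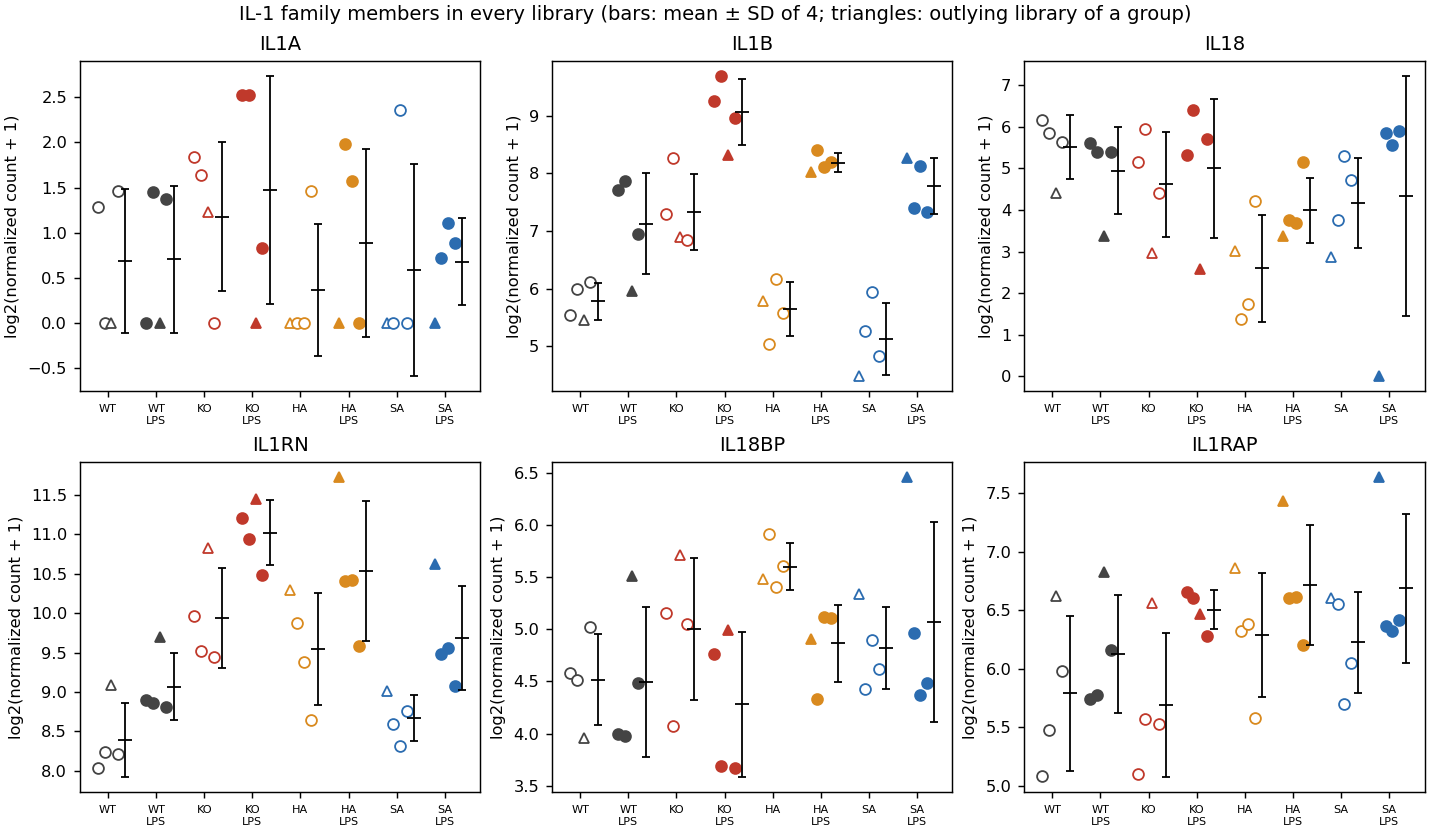
Level of the 6 members in every library, as log2(normalized count + 1), in the 8 groups (open, unstimulated, filled, LPS; the 4 points of a group are replicates 1 to 4 from left to right; bars are mean ± SD, n = 4; triangles mark the outlying library of a group). For IL1B every stimulated library lies above the unstimulated ones of its line in KO, HA and SA, and IL1A stays below 5 normalized counts.

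Whether the IL1B response to LPS differed between lines was tested as an interaction. The response was larger than in WT by 1.20 in HA (SE 0.54, 95% interval from 0.09), by 1.31 in SA (95% interval 0.21 to 2.41) and by 0.39 in KO (95% interval -0.72 to 1.49), all on the log2 scale. None passed the limit, with limma adjusted p of 1.00e+00 for HA and KO and 9.97e-01 for SA. Without adjustment the p in this fit across all genes was 3.48e-02 for HA and 2.18e-02 for SA by limma. Calls in HA and SA beside none in WT over all libraries therefore do not show different responses. Of all genes, 0.00806% had a called interaction for KO and 0% for HA and SA, while an unadjusted p under 0.05 was found for 175, 142 and 457 genes (KO, HA and SA).

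IL1A, the other ligand of IL1R1, was almost absent. Its reads ran from 0 to 5 per library, and summed over the 4 libraries of a group they were 3 in WT, 4 in stimulated WT, 5 in KO, 9 in stimulated KO, 2 in HA, 6 in stimulated HA, 5 in SA and 3 in stimulated SA. A count of 0 allows up to 3 reads, which is 1.88 to 4.49 normalized counts depending on the library and covers counting error only. No IL1A difference was detectable at this depth.

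IL1RN, the receptor antagonist, had values of 261, 300, 543 and 294 in WT cells and 477, 461, 832 and 446 after LPS. In KO cells it read 999, 735, 1819 and 695 at rest and 2365, 1972, 2804 and 1431 after LPS. The HA libraries gave 1256, 937, 664 and 399 at rest and 3392, 1359, 1367 and 763 after LPS. SA libraries gave 517, 386, 318 and 432 at rest and 1573, 711, 755 and 536 after LPS. Stimulated and unstimulated libraries overlapped in WT, KO and HA and did not overlap in SA. The log2 fold change with LPS was 0.68 in WT, 1.08 in KO, 0.99 in HA and 1.01 in SA (SE 0.39 each), and none passed the limit over all libraries (limma adjusted p = 3.69e-01 to 1.00e+00). Without the outlying libraries the KO value was 1.24 (limma adjusted p = 4.66e-03). Those libraries were chosen where IL1RN runs high, so this call is not separate support.

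IL18, IL18BP and IL1RAP were not called in any LPS comparison. The log2 fold change of IL18 was -0.57 in WT, 0.38 in KO, 1.40 in HA and 0.17 in SA cells, each with an SE of 1.00, so that the 95% interval in WT, for example, ran from -2.62 to 1.47. IL18BP differed by -0.03 in WT, -0.72 in KO, -0.73 in HA and 0.25 in SA (SE 0.43). In HA every stimulated library, at 29.0, 19.1, 33.7 and 33.4, was below the unstimulated ones at 43.7, 59.1, 41.3 and 47.6. The IL1RAP difference was 0.33 in WT, 0.81 in KO, 0.43 in HA and 0.46 in SA (SE 0.37), with overlapping groups in each line. Over all genes, groups with and without LPS did not overlap for 2.60% in WT, 3.45% in KO, 3.49% in HA and 4.18% in SA.

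KO cells held more IL1B and more IL1RN than WT cells after LPS, and the ligand and its antagonist differed by about the same amount. After LPS, IL1B was 562 ± 211 in KO and 156 ± 79.6 in WT cells (SD, n = 4), and every KO library was above every WT library, as in 13.9% of all genes in one direction or the other. The log2 fold change was 1.93 (SE 0.38, limma adjusted p = 1.08e-03), which is 3.82-fold. IL1RN was 2143 ± 584 in KO and 554 ± 186 in WT cells, again without overlap, with a log2 fold change of 1.96 (SE 0.39, limma adjusted p = 1.36e-03), or 3.88-fold. These were 2 of 5 tested members, in a comparison where 3.47% of all genes were called. Fitted on these 8 libraries alone, without a block, IL1B missed the limit (limma adjusted p = 2.67e-02). IL18, IL18BP and IL1RAP differed by 0.06, -0.21 and 0.38, and their groups overlapped. In bulk RNA, more cells that make a transcript and more transcript per cell cannot be told apart.

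Without LPS, IL1B was 173 ± 90.9 in KO and 54.9 ± 12.6 in WT cells, and IL1RN was 1062 ± 523 and 349 ± 130. All KO libraries were above all WT libraries for both genes, which held, in either direction, for 12.0% of all genes. The log2 fold changes, 1.55 for IL1B (SE 0.38, limma adjusted p = 1.19e-02) and 1.55 for IL1RN (SE 0.39, limma adjusted p = 1.56e-02), missed the limit, so 0 of 5 members were called beside 2.90% of all genes. Within pairs of replicate numbers both were called, at 1.94e-03 for IL1B and 3.64e-05 for IL1RN (limma adjusted p with the block), where 5.84% of all genes were. IL1B was higher in KO in 4 of 4 pairs, by 0.73 to 2.27, and IL1RN in 4 of 4, by 1.24 to 1.94. After LPS the block gave limma adjusted p of 1.53e-06 for IL1B and 2.04e-07 for IL1RN, with 10.8% of all genes called. Leaving out the outlying libraries also put both past the limit at rest, with 1.58 for IL1B (limma adjusted p = 3.04e-03) and 1.49 for IL1RN (limma adjusted p = 1.63e-04), beside 4.97% of all genes, and both stayed past it after LPS, beside 7.0%. The IL1RN calls in that fit are not separate support, since IL1RN set the end at which libraries were left out. Leaving out WT replicate 3 alone gave 1 called member.

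**Figure D2:**
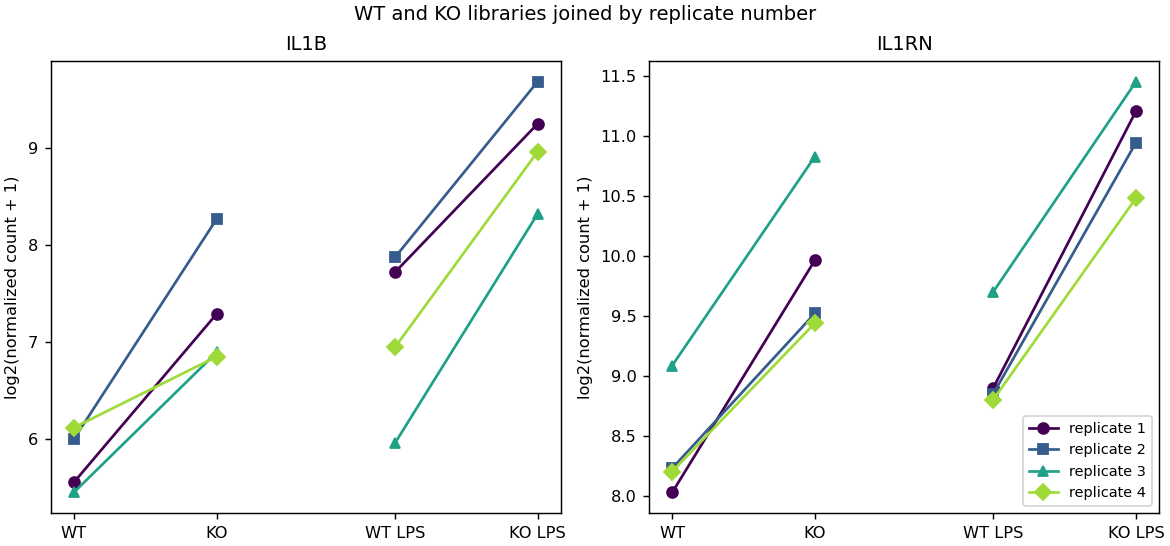
IL1B and IL1RN in WT and KO libraries joined by replicate number, unstimulated on the left and after LPS on the right of each panel (y axis, log2(normalized count + 1)). Each of the 4 lines rises from WT to KO in both genes and both conditions, and replicate 3 holds the highest IL1RN in each of the 4 groups.

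Some markers of cell type differed along with these members, without moving as a class. Of 10 monocyte markers, 3 were called higher in KO than in WT at rest, which were LYZ, encoding lysozyme, by 1.89, CD14, a coreceptor for LPS, by 1.66 and FCER1G by 0.53. After LPS LYZ was called higher, by 2.29, and CD33 lower, with a log2 difference of -0.73. Of all genes, 2.90% were called in KO against WT at rest and 3.47% after LPS. The median of the 10 was 0.39 at rest and 0.33 after LPS. Their summed level, to which LYZ contributes, ran from 14186 to 15688 in WT and from 26425 to 37652 in KO cells at rest, and from 12593 to 15341 and 27056 to 43378 after LPS. PAX5, a B cell transcription factor, was called higher in KO than in WT at rest by 1.70 (limma adjusted p = 2.05e-03) and after LPS by 1.99 (limma adjusted p = 2.82e-04), while MS4A1, another B cell marker, was at 0 in 28 of 32 libraries. The 4 fibroblast markers summed to 24.6 to 31.8 in WT and 0 to 6.41 in KO cells at rest, with COL1A2 and COL3A1 at 0 in all libraries. The 4 epithelial markers summed to at most 12.2 in those groups, with KRT19 at 0. The monocyte sum was 24419 to 30348 in HA and 13851 to 14368 in SA cells at rest. In HA against WT, LYZ was the 1 marker of the 10 called at rest (1.62, with a median of 0.11 for the list), and after LPS LYZ was called higher (1.88) and CD14 (-1.37) and ITGAM (-1.41) lower. In that comparison 2.52% of all genes were called at rest and 2.02% after LPS. No monocyte marker was called between SA and WT, where 0% of all genes were. The part of these differences in the IL1B and IL1RN levels was not tested.

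At rest the mean of HA cells lay nearer to WT for IL1B and nearer to KO for IL1RN. Over all libraries no member was called between HA and either line. At rest, IL1B was 50.8 ± 16.1 in HA and 54.9 ± 12.6 in WT cells, a log2 difference of -0.14 (95% interval -0.92 to 0.65), and IL1RN was 814 ± 367 against 349 ± 130, a difference of 1.16 (SE 0.39, limma adjusted p = 7.24e-02). None of the 5 members was called between HA and WT over all libraries, at rest or after LPS, where 2.52% and 2.02% of all genes were. After LPS, HA cells had 291 ± 33.6 of IL1B and WT cells 156 ± 79.6, and all HA libraries were above all WT libraries, a separation found for 13.5% of all genes. That difference of 1.06 missed the limit (SE 0.38, limma adjusted p = 1.30e-01), as did IL1RN at 1.47 (SE 0.39, limma adjusted p = 2.96e-02). Without the outlying libraries IL1RN passed the limit both at rest, with 1.14 (limma adjusted p = 1.33e-03), and after LPS, with 1.28 (limma adjusted p = 1.30e-03), where 17.6% and 4.72% of all genes were called. Those libraries were chosen where IL1RN runs high, so these IL1RN calls are not separate support. Leaving out stimulated HA replicate 4 alone also gave 1 called member after LPS. The comparisons of KO, HA and SA with WT share the WT libraries and are not independent of one another.

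IL18 was low in HA cells at rest. It read 7.12, 1.60, 2.36 and 17.6 there and 70.1, 56.9, 20.2 and 49.0 in WT cells, and every HA library was below every WT library. The log2 difference of -2.92 had a wide error (SE 1.00, limma adjusted p = 7.36e-02) and missed the limit. Without the outlying libraries it was -3.44 (limma adjusted p = 1.05e-04). That fit left out WT replicate 3, the lowest WT value at 20.2. Its libraries were left out on a component that IL18 follows (r = -0.90), so this call is not separate support. IL18BP was instead higher in HA than in WT at rest, with 43.7, 59.1, 41.3 and 47.6 in HA and 22.9, 21.8, 14.6 and 31.5 in WT cells. These groups did not overlap either, and the difference of 1.08 missed the limit (SE 0.43, limma adjusted p = 1.22e-01). Separate groups were found for 17.6% of all genes in this comparison. After LPS the libraries of both genes overlapped between HA and WT.

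In the other groups IL18 varied widely between libraries of 1 line. It read 34.6, 60.3, 6.76 and 20.2 in KO cells and 39.1, 83.3, 4.94 and 50.9 in stimulated KO cells, and the lowest value of both groups was replicate 3. In SA cells it read 6.26, 12.5, 38.6 and 25.5, and after LPS 0, 57.1, 46.4 and 58.1. The 0 in stimulated SA replicate 1 allows up to 3.47 normalized counts, so that library lay below the others of its group. Neither KO nor SA differed from WT past the limit in IL18, with log2 differences of -0.90 and -1.35 at rest and 0.06 and -0.61 after LPS (SE 1.00 each). IL18BP differed from WT by 0.48 in KO and 0.30 in SA at rest and by -0.21 and 0.58 after LPS (SE 0.43 each), none past the limit. Without the outlying libraries the KO difference of IL18BP at rest was 0.06 and that of SA was -0.06, and IL18 in SA after LPS turned to 0.31.

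Directly compared, KO cells at rest had more IL1B than HA cells in every library, with a difference of 1.68 (SE 0.38, limma adjusted p = 3.57e-02) that missed the limit over all libraries. Without the outlying libraries it was 1.87 (limma adjusted p = 1.30e-03), and IL18 was also higher in KO, by 2.72 (limma adjusted p = 2.27e-03), beside 8.18% of all genes. The IL18 call is not separate support, since IL18 follows the component on which those libraries were left out (r = -0.90). Libraries of KO and HA were separate for 4.98% of all genes at rest and 5.09% after LPS. IL1RN differed by 0.39 between KO and HA at rest (95% interval -0.41 to 1.20) and by 0.49 after LPS (95% interval -0.32 to 1.30). IL1B after LPS differed by 0.87 (95% interval 0.09 to 1.65, limma adjusted p = 4.08e-01). Over all libraries 0 of 5 members were called between KO and HA, beside 0.226% of all genes at rest and 0.00806% after LPS.

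SA cells did not differ from WT cells past the limit in any member. IL1B was 36.5 ± 17.0 in SA at rest, a difference of -0.65 (95% interval -1.43 to 0.13), and 228 ± 75.9 after LPS, a difference of 0.66 (95% interval -0.12 to 1.44). For IL1RN the differences were 0.28 (95% interval -0.52 to 1.09) and 0.62 (95% interval -0.19 to 1.42). The libraries of SA and WT overlapped for all 6 members in both conditions, and were separate for 4.22% of all genes at rest and 2.61% after LPS. No gene was called between SA and WT (0% of all genes by limma in both conditions), and an unadjusted p under 0.05 was found for 445 genes at rest and 646 after LPS.

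**Figure D3:**
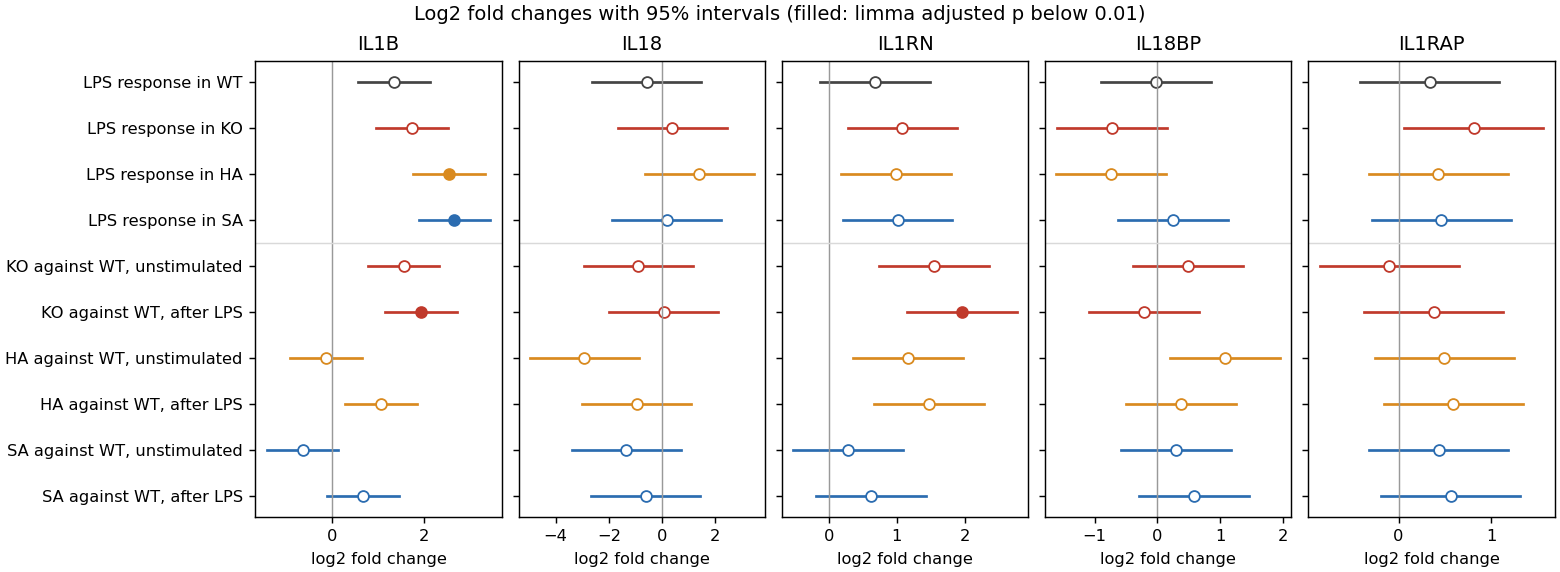
Log2 fold changes of the 5 tested members with 95% intervals from the fit over all 32 libraries, for LPS in each line (upper rows) and for each line against WT (lower rows). Filled points passed the limit of 0.01 on the adjusted p, which are IL1B with LPS in HA and SA and IL1B and IL1RN between KO and WT after LPS. The horizontal scale differs between panels.

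In order of the group means, IL1B was highest in stimulated KO (562), then stimulated HA (291), stimulated SA (228), KO at rest (173), stimulated WT (156), WT at rest (54.9), HA at rest (50.8) and SA at rest (36.5). Thus unstimulated KO cells lay next to stimulated WT cells. IL1RN ran from stimulated KO (2143) over stimulated HA (1720), KO (1062), stimulated SA (894), HA (814), stimulated WT (554) and SA (413) to WT (349). IL18 was highest in WT at rest (49.1) and lowest in HA at rest (7.18), IL18BP highest in HA at rest (47.9) and lowest in stimulated KO (20.2), and IL1RAP highest in stimulated SA (111) and lowest in KO at rest (54.6). The place of stimulated SA rested on its outlying replicate 1 at 198. With the outlying libraries left out, IL1RAP was highest in stimulated KO (90.9), followed by stimulated HA (88.8) and stimulated SA (81.7). For every member, neighbours in this order overlapped in their libraries.

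IL1RAP, the shared receptor subunit, had overlapping libraries in every comparison. At rest it was 59.0 ± 28.3 in WT, 54.6 ± 26.5 in KO, 80.8 ± 27.9 in HA and 76.3 ± 21.9 in SA cells (SD, n = 4). After LPS it was 72.3 ± 28.1 in WT, 90.1 ± 10.2 in KO, 110 ± 42.9 in HA and 111 ± 58.2 in SA cells. Its log2 differences from WT ran from -0.10 to 0.59, and no IL1RAP comparison passed the limit.

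Since a ligand acts against its antagonist, their reads were set against each other within each library, where no scaling between libraries enters. The log2 ratio of IL1B to IL1RN reads, each plus 1, was -2.61 ± 0.70 in WT and -2.62 ± 1.10 in KO cells at rest (SD, n = 4), about 6.11 and 6.13 IL1RN reads for each IL1B read. In HA and SA cells at rest it was -3.91 ± 0.90 and -3.56 ± 0.93, or 15.0 and 11.8 IL1RN reads for each IL1B read. After LPS it was -1.94 ± 1.26 in WT, -1.97 ± 0.83 in KO, -2.35 ± 0.98 in HA and -1.90 ± 0.40 in SA cells. In all 4 lines the mean ratio was higher with LPS. With the outlying libraries left out, the means were -2.27 in WT, -2.18 in KO, -3.71 in HA and -3.22 in SA at rest, and -1.34, -1.58, -1.90 and -1.75 after LPS, again higher with LPS in each line. The log2 ratio of IL18 to IL18BP was 0.99 ± 0.54 in WT and -3.02 ± 1.41 in HA cells at rest, and -0.37 ± 1.88 in KO and -0.67 ± 1.33 in SA cells. These 4 means were 1.18, -3.21, 0.40 and -0.05 without the outlying libraries, so the sign turned in KO. After LPS the means of IL18 to IL18BP were 0.45 in WT, 0.73 in KO, -0.88 in HA and -0.69 in SA cells, and without the outlying libraries 1.31, 1.77, -0.66 and 1.17, with the sign turned in SA. These ratios are descriptions and were not tested.

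**Figure D4:**
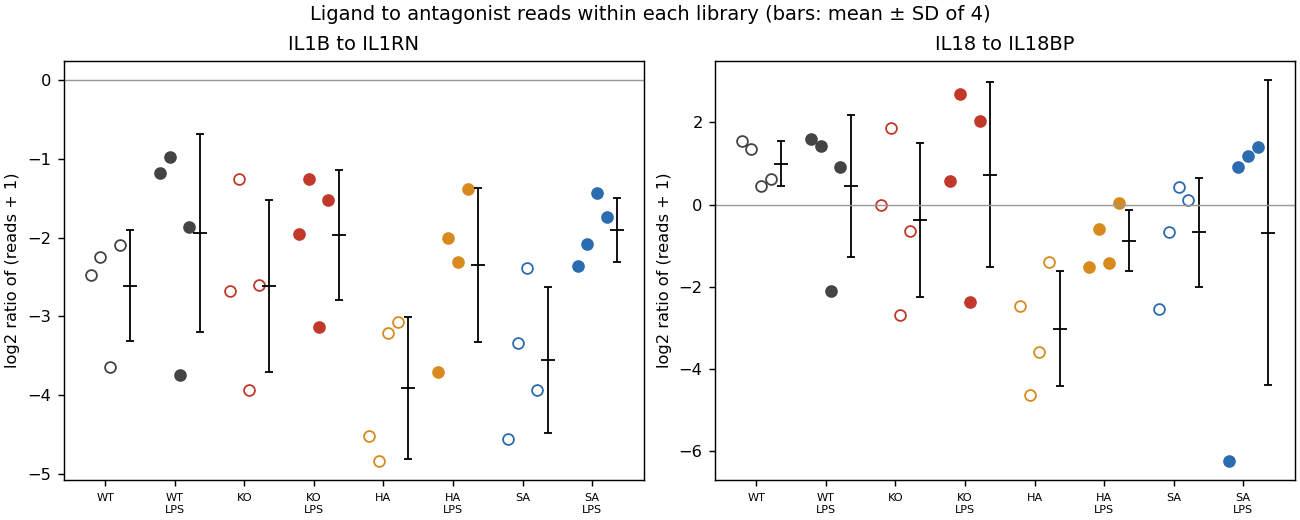
Log2 ratio of reads (each plus 1) of IL1B to IL1RN and of IL18 to IL18BP within each library of the 8 groups (open, unstimulated, filled, LPS; bars, mean ± SD, n = 4). Every IL1B to IL1RN ratio lies below 0, so IL1RN had more reads than IL1B in all 32 libraries. For IL18 to IL18BP, the 4 unstimulated HA libraries lie at -1.39 or lower.

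Within groups the members deviated in opposite directions along the component that sets the outlying libraries apart, with IL1RN, IL1RAP and IL18BP on one side and IL18 on the other. Among the 8 outlying libraries, IL1RN was the highest of its group in 8 of 8 groups and IL1RAP in 7, while IL18 was the lowest in 7 and IL1B in 5. The libraries were chosen at the end of the component where IL1RN runs high. The places of IL1RN, and of members that follow the component, therefore come at least in part from that choice. The deviations of a library from its group mean correlated with the component at 0.85 for IL1RN, 0.80 for IL1RAP, 0.67 for IL18BP, -0.33 for IL1B and -0.90 for IL18 (Pearson's r over 32 libraries, a description, since the component was computed from the same libraries). Between members, the deviations of IL1RN correlated at 0.84 with IL1RAP and -0.72 with IL18. The 8 outlying libraries held 7360475 to 14724448 reads on genes and the other 24 held 6504099 to 14750815. The outlying library had the fewest genes with a read in 6 of 8 groups, for example 13460 in stimulated SA replicate 1 beside 17383 to 18552 in the others. Its summed monocyte markers were the lowest in 4 of 8 groups, those of KO and HA, at 26425 beside 31409 to 37652 in KO at rest. Reads on genes were the lowest in 2 of 8. What sets these libraries apart was not tested.

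**Figure D5:**
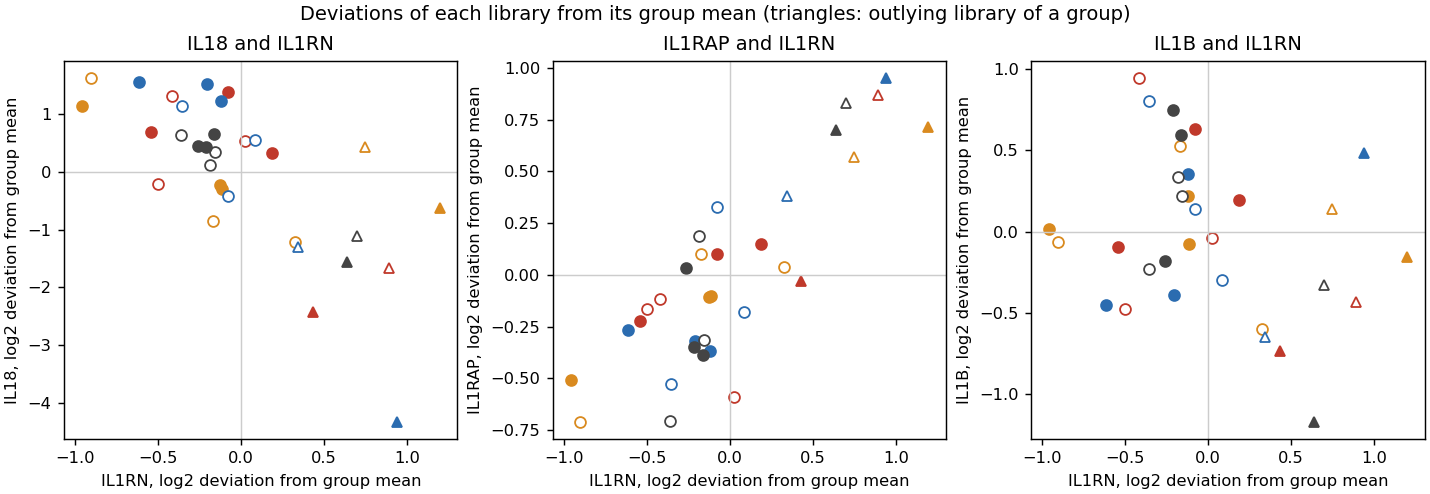
Log2 deviation of IL18, IL1RAP and IL1B (y axes) and of IL1RN (x axes) from the group mean in each of 32 libraries (open, unstimulated, filled, LPS; grey WT, red KO, orange HA, blue SA; triangles, outlying library of a group). All 8 triangles lie at positive IL1RN deviations, and 7 of them at negative IL18 deviations. The triangles were chosen at the end of the component where IL1RN runs high, so their place is not an independent result.

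Over the 8 group means, the genes whose pattern was most like that of IL1B were CXCL10 (Pearson's r = 0.99) and RIN2 (0.98). For IL1RN they were IFIH1 (0.99), TLR7 (0.99) and PHACTR4 (0.99), and for IL18 VAPA (0.995), PDCD2L (0.99) and TCTEX1D2 (0.99). IL18BP was most like MGMT (0.98), RRP12 (0.97) and MFAP1 (0.96), and IL1RAP like NAB1 (0.98), TMEM184C (0.97) and DST (0.95). Among the members themselves, IL1B and IL1RN correlated at 0.86 and IL18 and IL18BP at -0.88. These are the best of 12406 genes over 8 points that share libraries, and they are descriptions only.

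The other genes of the pathway were taken from lists of ligands, receptors, signalling proteins and proteins of maturation and release. Of the 7 other IL-1 family ligands, 6 had no read in any library and IL37 had none in 30 of 32. Of 9 receptors, 3 were expressed enough to be tested (IL1R1, IL1R2 and SIGIRR). IL1R2, a decoy receptor that binds IL-1 without signalling, was 57.8 ± 13.7 in KO and 9.65 ± 4.37 in WT cells at rest, a rise of 2.54 (SE 0.59, limma adjusted p = 6.33e-03), and it was the only receptor called in any comparison over all libraries. In that comparison 1 of the 3 tested receptors was called, beside 2.90% of all genes. The median log2 fold change of the 3 was 0.04, beside -0.03 for all genes. With the replicate block IL1R2 was called between KO and WT after LPS as well, at 16.7 to 28.2 in KO and 2.99 to 9.38 in WT libraries.

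Of 22 signalling genes, 21 were tested. PELI1, a ubiquitin ligase of the IRAK complex, rose with LPS in KO by 2.90 (limma adjusted p = 1.04e-05), in HA by 2.45 (limma adjusted p = 1.76e-04) and in SA by 2.71 (limma adjusted p = 3.54e-05), and it was the single signalling gene called over all libraries. The median of the 21 with LPS was 0.20 in WT, 0.21 in KO, 0.17 in HA and 0.27 in SA, beside -0.02 to 0.02 for all genes. Within pairs, 5 of 21 were called with LPS in both WT (1.02% of all genes) and KO (0.935%), all higher: NFKB1, the inhibitors NFKBIA and TNFAIP3, NFKBIZ and PELI1. No signalling gene was called in KO against WT at rest in either fit, and 7 of 21 were called within pairs after LPS, beside 10.8% of all genes, which were these 5 with MYD88 and TAB2, all higher in KO.

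Of 21 genes of maturation and release, 17 were tested. AIM2, a DNA sensor that forms an inflammasome, was 193 ± 34.1 in KO and 9.32 ± 6.12 in WT cells at rest, a rise of 4.50 (SE 0.41, limma adjusted p = 1.12e-08). After LPS AIM2 was higher in KO as well (339 ± 95.6 against 29.4 ± 10.2, limma adjusted p = 9.38e-07), and in HA it was higher than in WT by 2.54 on the log2 scale at rest (limma adjusted p = 2.09e-04) and by 2.21 after LPS (limma adjusted p = 1.11e-03). LPS raised AIM2 in SA cells by 2.16 (limma adjusted p = 3.66e-03), beside 0.492% of all genes called. The other lines had no call, but stimulated AIM2 libraries lay above all unstimulated ones in each of the 4 lines. WT ran from 1.67 to 16.6 at rest and 19.5 to 43.4 after LPS, KO from 151 to 222 and 256 to 477. HA ran from 36.6 to 82.4 and 101 to 196. Of all genes, 2.60% in WT, 3.45% in KO, 3.49% in HA and 4.18% in SA were separate. No other gene of this list was called over all libraries. In KO against WT that was 1 of 17, beside 2.90% of all genes at rest and 3.47% after LPS. In HA against WT it was 1 of 17, beside 2.52% at rest and 2.02% after LPS. The median of the 17 in KO against WT was 0.08 at rest and 0.13 after LPS, beside -0.03 and -0.01 for all genes. Within pairs at rest, 2 of 17 were called higher in KO, AIM2 and GSDMD, the pore-forming gasdermin. ELANE, neutrophil elastase, was the 1 called lower, and 5.84% of all genes were called. After LPS 2 of 17 were called higher within pairs, AIM2 and NINJ1, which ruptures the membrane of dying cells. That share was close to the 10.8% of all genes called there.

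Of 11 other LPS-induced cytokines, 6 were tested. The chemokines CCL3 and CCL4 rose with LPS in all 4 lines, CCL4 by 4.58 to 5.01 and CCL3 by 2.42 to 3.05 on the log2 scale, and TNF rose in KO by 1.02, in HA by 0.95 and in SA by 0.97. In KO against WT all 3 were higher, at rest by 0.67 for TNF, 2.57 for CCL3 and 3.05 for CCL4, and after LPS by 1.06, 3.09 and 2.98. In HA against WT after LPS, TNF was higher by 0.79 and CCL3 by 2.11. The median of the 6 was 1.66 in KO against WT at rest and 1.95 after LPS, beside -0.03 and -0.01 for all genes. Within pairs TNF and CCL2 were called with LPS in WT as well. In KO against WT, 3 of 6 were thus called in both conditions over all libraries, beside 2.90% of all genes at rest and 3.47% after LPS. Within pairs the same 3 were called at rest, beside 5.84% of all genes, and after LPS 5 of 6, with CCL2 and CXCL8, beside 10.8%.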

How the data were processed

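RNA of THP-1 cells was sequenced as 32 libraries with the QuantSeq 3′ kit. Per the methods, the authors used Bbduk for trimming, STAR for mapping to GRCh38 and HTSeq-count for counts per gene. Versions and annotation release are not given in the sources used here. The deposited files hold these as normalized counts, scaled by the authors separately for each line. In every library 100.000% of them were whole multiples of 1 number within 0.05 reads, which recovered the reads. These were divided by median-of-ratios factors over all 32 libraries, computed from the 12406 genes with a mean deposited count of at least 10. Spike-in rows (92 of 60199, 1 read in all) were left out. No molecular identifiers were counted, so intervals and floors cover counting error only.

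Log2(normalized count + 1), which understates changes of low genes, was tested with limma 3.58.1 in R 4.3.3, 1 mean per group, variance trend, 15 comparisons, Benjamini-Hochberg adjustment over all genes tested in a comparison and a limit of 0.01. The procedure was tested on simulated data. Pairing of replicate numbers was checked by correlating each library's deviations from its group mean with those of the same number in the other group. All 4 same-number correlations exceeded 0.1 for LPS in WT (0.263 to 0.680) and KO (0.124 to 0.675) and for KO against WT at rest (0.334 to 0.682) and after LPS (0.179 to 0.723). The highest correlations between different numbers were 0.326, 0.344, 0.366 and 0.430 in the same order, each above the lowest same-number value. The own number matched best for 4 of 4 libraries for LPS in WT and for KO against WT at rest. For LPS in KO and for KO against WT after LPS it did so for 3 of 4. The pairing comes from the data, since no label says what a number marks. Blocked values used the libraries compared only. The fit without the outlying libraries and one with voom weights were chosen after seeing the data. Leaving out the library at 1 end of the component lowers the spread by construction. That end was the one where IL1RN runs high. Calls of IL1RN, and of members that follow the component, are therefore not separate support in that fit.

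The 6 members were named for this account, and of each pathway list at most 4 called genes per comparison with the largest change, beside those called within pairs, which were named after their values were seen. Members, lists and rules were chosen with earlier results of these data known. Of the genes and lists these rules cover, a few are not reported here. Positions are those of GENCODE release 44.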

Additional observations from a re-analysis of the deposited data

Results flagged for a closer look

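There were 48 groups of 4 values (6 members in 8 groups). Groups without a library above 3 reads were not checked, which were IL1A in WT, stimulated WT, KO, HA and stimulated SA. Of the groups checked, 6 held a library whose gap to the others exceeded Dixon's 95% critical value. By chance this happens in about 1 in 20 groups. IL1RN stood at 543 in WT replicate 3, beside 261 to 300 in the others, and at 832 in stimulated WT replicate 3, beside 446 to 477. In stimulated SA replicate 1, IL18BP was 86.8, beside 19.7 to 30.2, and IL1RAP was 198, beside 79.0 to 84.6. These 4 values belong to the outlying libraries of their groups, which were chosen where IL1RN runs high. IL18 was 34.3 in stimulated HA replicate 4, beside 9.28 to 12.5. IL1A was 4.11 in SA replicate 3, beside 0 in the other 3, from 5 reads.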

How the results depend on the processing

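Calls of members used a limit of 0.01, and 310 of 339 counts of called members stayed within 1.5 times under the alternatives. The count for LPS in WT went from 0 to 2 with the replicate block within the groups compared and 1 with library weights. For LPS in KO it went from 0 to 2 with that block and without the outlying libraries, and to 1 with library weights, a limit of 0.05 or voom, and leaving out 1 library gave 0 to 1 (1 without KO replicate 2 or stimulated KO replicate 3). With the block in the groups compared, whose numbers did not pair the libraries, LPS in HA gave 2 and LPS in SA 0, and LPS in SA also gave 0 when only its own libraries were fitted. KO against WT at rest went from 0 to 1 with a block over all libraries, to 2 with the block in the groups compared, library weights, a limit of 0.05 or without the outlying libraries, and 0 to 1 on leaving out 1 library. KO against WT after LPS fell from 2 to 1 when only those libraries were fitted (IL1B limma adjusted p = 2.67e-02). HA against WT at rest went from 0 to 2 with library weights or without the outlying libraries. After LPS it went to 1 with the block over all libraries, library weights, a limit of 0.05 or without the outlying libraries, and 0 to 1 on leaving out 1 library. KO against HA at rest went to 1 with library weights or a limit of 0.05 and to 2 without the outlying libraries. The causes were not tested. Neither block moved any other count of called members.

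The log2 fold changes that turned sign were not called. IL18 turned to -0.042 for LPS in SA with a pseudocount of 0.5, to -0.035 for KO against WT after LPS with the values as deposited, and for SA against WT after LPS to 0.41 with library weights and 0.31 without the outlying libraries. IL1B turned to 0.0095 for HA against WT at rest with the values as deposited. IL18BP turned to -0.028 with library weights and -0.041 without the outlying libraries for LPS in SA, and to -0.056 without the outlying libraries for SA against WT at rest. IL1RAP turned to -0.094 with library weights for the HA interaction, to -0.33 with library weights and -0.11 without the outlying libraries for the SA interaction, and to 0.037 without the outlying libraries for KO against HA after LPS. On leaving out 1 library, IL18 ran from -0.47 to 0.86 for KO against WT after LPS, -0.17 to 1.19 for LPS in KO, -0.35 to 1.61 for LPS in SA and -1.14 to 0.83 for SA against WT after LPS. IL18BP ran from -0.45 to 0.13 for KO against WT after LPS, -0.21 to 0.48 for LPS in SA, -0.19 to 0.61 for the SA interaction and -0.36 to 0.15 for LPS in WT. IL1B ran from -0.31 to 0.064 for HA against WT at rest and -0.00199 to 0.70 for the KO interaction. IL1RAP ran from -0.38 to 0.026 for KO against HA after LPS, -0.39 to 0.18 for KO against WT at rest, -0.18 to 0.33 for the HA interaction and -0.19 to 0.36 for the SA interaction. IL1RN ran from -0.090 to 0.63 for the HA interaction. Of 288 group levels, 1 moved by more than its SD, IL1RAP in stimulated KO, to 79.4 as deposited. Count-based tests of the recovered reads (edgeR, DESeq2), planned as alternatives, were not run. IL1A and low IL18 values are limited by depth.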
